A study of Mus musculus with 36 samples.

Results

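Noncoding host genes of small nucleolar RNAs were followed in mouse embryos at the 8-cell (8C) and 2-cell (2C) stages. The members were chosen by name as a list of 8 known hosts (Gas5, Snhg1, Snhg3, Snhg5, Snhg6, Snhg8, Snhg9 and Snhg12) that had a row in the table. The list was drawn up with earlier results of these data known, so the counts of members called describe these genes and are no independent evidence of their direction. All 8 were present among 23845 gene symbols. All 8 passed the filter on low counts in each main fit (all libraries, 2C libraries and 8C libraries). The RNA came from 36 pools of 4 to 5 embryos, amplified with SMART-seq v4, a kit that does not record the strand of the RNA. The groups were KRAB at 2C (6 libraries), VP64 at 8C (7 libraries), Ctrl at 8C (6 libraries) and at 2C (7 libraries), and NI at 8C (6 libraries) and at 2C (4 libraries). KRAB is the name of a repressor domain and VP64 that of an activator domain. The labels give these names alone, with no strain, target or dose. The abbreviation NI is left unexplained, as is the content of the Ctrl treatment, and the labels describe injection and culture in the same words for every library. KRAB was present at 2C only and VP64 at 8C only, so neither treatment could be compared between stages. No label says that the pools of a group came from separate matings or days, so the p-values speak only of the variation from pool to pool, part of which may be technical.

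A small nucleolar RNA (snoRNA) is a short RNA of the nucleolus that guides the chemical modification of ribosomal RNA or takes part in cutting its precursor. Box C/D snoRNAs guide ribose methylation by fibrillarin, and box H/ACA snoRNAs guide the conversion of uridine to pseudouridine by dyskerin. Most vertebrate snoRNAs are cut out of introns, and their host genes are often ribosomal protein genes or, as here, genes whose spliced RNA encodes no known protein. The spliced RNA of several such hosts is short-lived, since ribosomes engage its short reading frames and nonsense-mediated decay removes it. Ribosome production restarts from the zygotic genome during the cleavage divisions of the mouse embryo.

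The library totals spanned 1043743 to 13583558 counts. The Ctrl 2C libraries were deeper, with a median of 7176520 counts, than the KRAB 2C libraries (2636379) and the NI 2C libraries (2344806). Markers of the 2-cell embryo and of the oocyte separated the stages. In the first list, 8 genes of the 2-cell embryo, Zscan4 genes among them, summed to between 7.74 and 98.9 counts per 1000000 (CPM) in the 8C libraries, against 361 to 2251.8 CPM in the 2C libraries. Oocyte markers summed to between 39.6 and 492 CPM at 8C, against 3068.9 to 29289.4 CPM at 2C. Genes of the morula and blastocyst, such as Cldn4 and Tdgf1, did not separate the stages fully, with sums between 261 and 2666.0 CPM at 8C, against 27.6 to 917 CPM at 2C. Of 15 cumulus and granulosa cell markers, 13 had counts in the Ctrl 2C group, and their sum ranged from 16.2 to 404 CPM over all libraries. Sperm markers summed to between 0 and 20.9 CPM. The part of such cells in the results was not tested.

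The members differ in which snoRNAs they carry. In the GENCODE vM21 annotation of GRCm38, the genome of the mm10 build the authors used, 28 snoRNA loci lay within the 8 host genes. Gas5, the growth arrest-specific transcript, held 9 loci, and Snhg1 held 8, and the named snoRNAs of both are of the box C/D kind. Snhg5 held 2 (Snord50a and Snord50b) and Snhg6 held 1 (Snord87). Among hosts of box H/ACA snoRNAs, Snhg3 held 2 (Snora73a and Snora73b), whose human counterpart acts in the cutting of the ribosomal RNA precursor, Snhg8 held 1 (Snora24) and Snhg9 held 1 (Snora78). Snhg12 held 4, of both kinds (Snora16a, Snora44, Snora61 and Snord99). On the plus strand lay Gas5 (chr1:161034422-161038539), Snhg12 (chr4:132308623-132311024) and Snhg1 (chr19:8723475-8726443). On the minus strand lay Snhg6 (chr1:9941959-9944118), Snhg8 (chr3:123507552-123508404), Snhg3 (chr4:132348014-132353686), Snhg5 (chr9:88521050-88522929) and Snhg9 (chr17:24719531-24719965). Snhg12 and Snhg3 lay on the same chromosome, on opposite strands. The annotation gives up to 12 exons in a transcript for Gas5 and up to 2 for Snhg9. All 15 named snoRNAs lay within an intron of at least 1 annotated transcript of their host. The longest named snoRNA of each host is given here because it is the part of the gene that is kept when the spliced RNA is destroyed. Capitals mark box C (TGATGA) and box D (CTGA) in the Snord RNAs and the ACA box near the 3′ end of the Snora RNAs. Coordinates are GRCm38, sequences 5′ to 3′ from GENCODE vM21. In Snord22 the exact letters of box C were not found near the 5′ end.
Snord80 in Gas5, chr1:161037601-161037681, plus strand: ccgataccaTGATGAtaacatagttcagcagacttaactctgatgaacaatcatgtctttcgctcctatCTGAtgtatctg
Snord22 in Snhg1, chr19:8725866-8725991, plus strand: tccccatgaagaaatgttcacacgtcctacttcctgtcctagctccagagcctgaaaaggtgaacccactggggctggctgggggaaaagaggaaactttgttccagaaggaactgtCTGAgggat
Snord50a in Snhg5, chr9:88521529-88521600, minus strand: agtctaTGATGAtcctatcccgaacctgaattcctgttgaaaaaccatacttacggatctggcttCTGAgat
Snord87 in Snhg6, chr1:9942463-9942549, minus strand: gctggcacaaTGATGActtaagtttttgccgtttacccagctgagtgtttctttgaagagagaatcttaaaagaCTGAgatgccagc
Snora73b in Snhg3, chr4:132352322-132352526, minus strand: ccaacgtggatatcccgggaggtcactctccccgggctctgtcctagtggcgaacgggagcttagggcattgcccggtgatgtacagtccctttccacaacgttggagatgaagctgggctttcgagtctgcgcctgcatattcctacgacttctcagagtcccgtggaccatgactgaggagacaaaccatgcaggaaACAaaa
Snora24 in Snhg8, chr3:123507937-123508066, minus strand: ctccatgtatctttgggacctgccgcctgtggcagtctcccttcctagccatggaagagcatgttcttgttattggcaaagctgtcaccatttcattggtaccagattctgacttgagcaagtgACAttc
Snora78 in Snhg9, chr17:24719676-24719803, minus strand: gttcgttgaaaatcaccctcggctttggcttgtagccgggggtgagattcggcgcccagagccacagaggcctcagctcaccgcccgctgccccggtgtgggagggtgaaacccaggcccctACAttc
Snora16a in Snhg12, chr4:132309464-132309600, plus strand: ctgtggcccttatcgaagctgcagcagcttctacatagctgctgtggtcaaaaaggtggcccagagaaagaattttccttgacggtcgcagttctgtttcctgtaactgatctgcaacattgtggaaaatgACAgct

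These snoRNAs themselves were hardly captured. The table held rows for 8 of the 15 named snoRNAs, and those rows summed to 103 counts over 36 libraries, against 31497 counts for the 8 hosts. Snora78 alone gave 88 of the 103 counts. The values that follow therefore describe the spliced or unspliced host RNA, not the snoRNA it releases. Some hosts share bases with other genes. The Snhg9 gene lies wholly within the span of Rps2, a ribosomal protein gene on the opposite strand, with 14 of its 183 exonic bases in common. Snhg3 overlaps the span of Rcc1, a regulator of the Ran GTPase on the same strand, over 5592 bases, with 135 of its 986 exonic bases in common. The largest overlap is that of Snhg3 with Gm17300, a long noncoding RNA gene on the opposite strand that has no row in the table, with 705 of the 986 exonic bases (71.5%) in common, and Snhg6 shares 127 of 1146 exonic bases with Mcmdc2 on the opposite strand. Without strand information, reads over shared bases cannot be told apart.

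Promoter windows of most of the hosts held a short word of the TATA type, though not the same one in each. The RefSeq promoter table for GRCm38.p6 (250 bases before to 49 after each start) held 8 entries for 7 of the genes. Words of the TATA type were searched on the strand of the gene, as TATAAA, as its variant TATATA, and as the further variant TATTTA. One of them began within the window in 7 of these 8 entries, and in 5947 of all 32851 promoters of that length (18.1%). The whole word, from its first to its last base, lay between 40 and 20 bases before the start in 4 of the 8 entries, against 3.07% of all promoters and 4.41% of 68 ribosomal protein promoters. The words were chosen after these sequences had been seen, so the counts are a description. Windows of 80 bases around the annotated start follow for the 6 genes with such a word in them, shown in capitals.
Gas5, chr1:161035116-161035195, plus strand: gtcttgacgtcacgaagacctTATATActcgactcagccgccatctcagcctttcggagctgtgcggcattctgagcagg
Snhg1, chr19:8723437-8723516, plus strand: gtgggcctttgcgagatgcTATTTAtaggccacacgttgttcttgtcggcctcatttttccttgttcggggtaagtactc
Snhg5, chr9:88522868-88522947, minus strand: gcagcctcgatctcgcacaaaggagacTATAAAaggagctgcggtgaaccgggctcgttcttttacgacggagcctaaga
Snhg3, chr4:132353657-132353736, minus strand: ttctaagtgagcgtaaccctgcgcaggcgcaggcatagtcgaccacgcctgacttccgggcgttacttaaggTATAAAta
Snhg8, chr3:123508307-123508386, minus strand: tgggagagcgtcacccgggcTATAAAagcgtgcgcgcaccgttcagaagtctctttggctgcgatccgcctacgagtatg
Snhg12, chr4:132308628-132308707, plus strand: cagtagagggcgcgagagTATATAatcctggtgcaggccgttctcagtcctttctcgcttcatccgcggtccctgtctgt
The word began 29 bases before the start in Gas5, 31 in Snhg1, 23 in Snhg5, 30 in Snhg8 and 32 in Snhg12, and 22 bases after the annotated start in Snhg3. A run of at least 6 pyrimidines that opens with C, the letters of a terminal oligopyrimidine tract, began between 5 bases before and 15 after the start in 3 of the 8 entries (Gas5, Snhg8 and Snhg12), against 17.6% of all promoters and 48.5% of ribosomal protein promoters. Such tracts are known from messages whose translation follows growth signals.

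Levels are given as CPM, the rounded counts of a gene scaled to its library's TMM-adjusted total. The summed level of the 8 hosts had its highest medians in the VP64 and Ctrl groups at 8C and its lowest in the Ctrl group at 2C, and the NI groups had nearly the same median at both stages. It ranged from 214.4 to 561.2 CPM in VP64 8C libraries (median 287.6), from 140.6 to 785.3 CPM in Ctrl 8C libraries (median 305.8) and from 130.3 to 447.4 CPM in NI 8C libraries (median 234.6). At 2C it ranged from 100.7 to 322.6 CPM in KRAB libraries (median 135.9), from 11.98 to 292.4 CPM in Ctrl libraries (median 61.4) and from 176.1 to 483.7 CPM in NI libraries (median 235.6). Such values are shares of the RNA counted in a library. The number of cells and the amount of RNA per cell cannot be read from them.

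**Figure D1:**
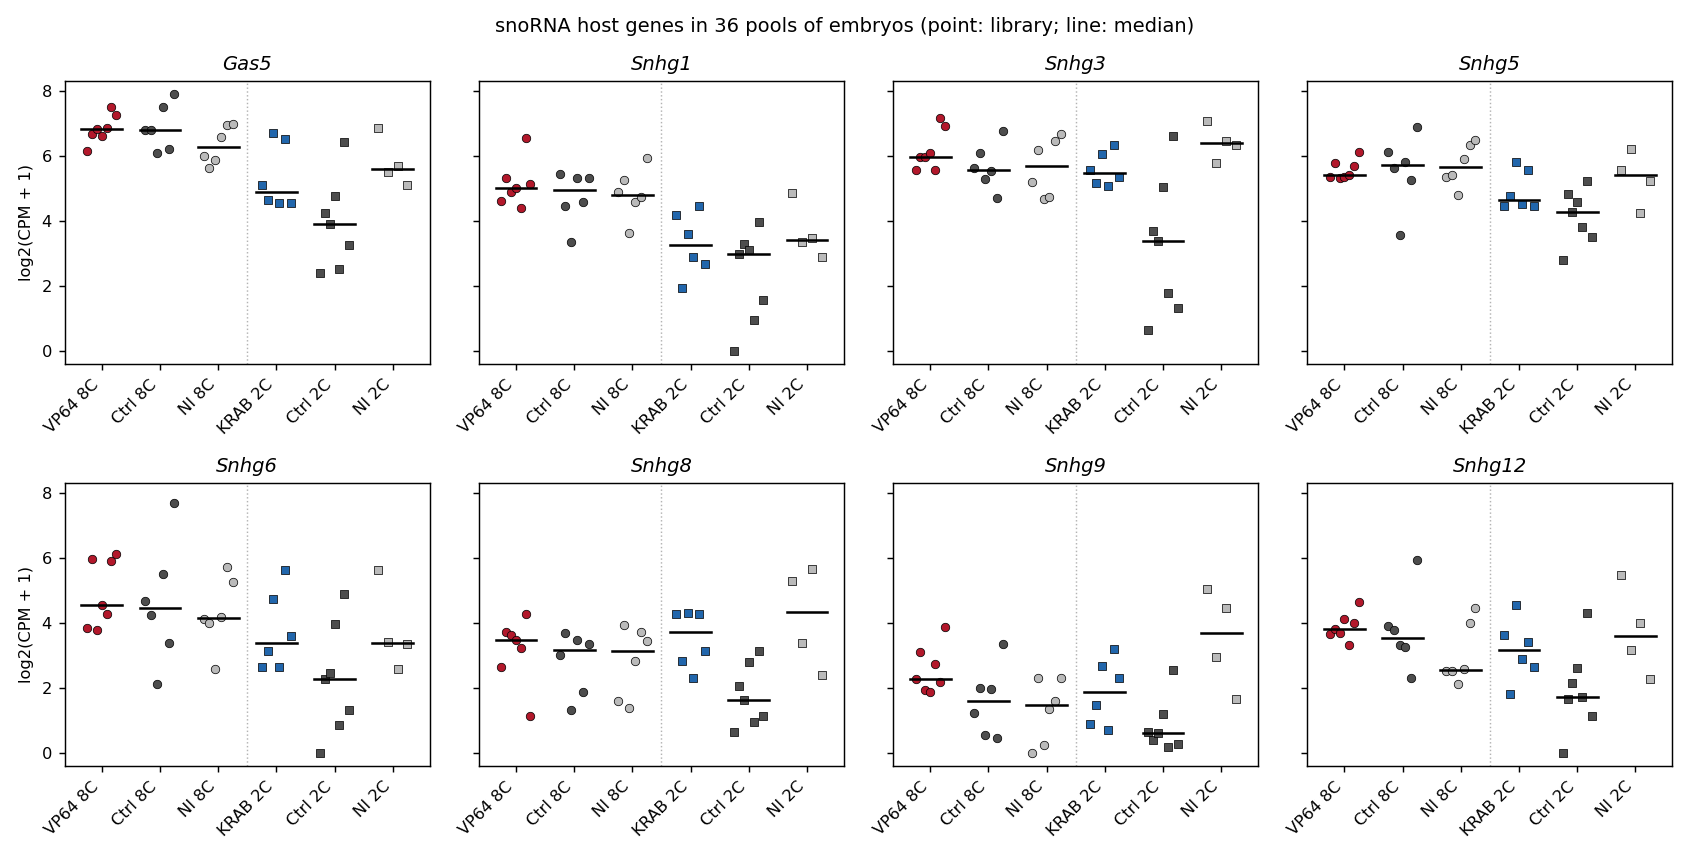
Level of each host gene in each library, as log2(CPM + 1); each point is 1 pool of embryos, circles are 8C and squares 2C, and the line is the group median. The 6 groups run along each axis, and the Ctrl 2C squares reach the lowest levels of most genes, with Snhg1, Snhg6 and Snhg12 at 0 in 1 library.

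Compared per length of the median annotated transcript, the genes kept different places in the groups. Gas5 led in the Ctrl 8C group with 207 CPM per kb, followed by Snhg3 with 127 CPM per kb. In the NI 2C group Snhg3 led with 203 CPM per kb, ahead of Gas5 with 96.6 and Snhg9 with 84.3 CPM per kb. Snhg9 had 10.6 CPM per kb in the NI 8C group. The order depended on the length used. Per length of the longest annotated transcript, Snhg3 had 95.4 and Gas5 51.1 CPM per kb in the Ctrl 8C group. The Ctrl 2C group had the lowest mean CPM of all 6 groups for each of the 8 genes. The highest group mean was 2.94 times the lowest for Snhg5 and 13.6 times for Snhg9, with the other genes between. Of the 5 neighbouring pairs in a gene's order of group means, 1 pair for Snhg1 (Ctrl 8C over NI 2C) differed by more than the larger SD of the pair, and none did for the other 7 genes.

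In Ctrl embryos the host genes were higher at 8C than at 2C. Gas5, Snhg1, Snhg5, Snhg6 and Snhg12 rose, and Snhg3, Snhg8 and Snhg9 had positive fold changes that did not pass the test. The 5 members called compare with 22.5% of 13158 genes called higher and 39% called lower in the same fit (edgeR's quasi-likelihood test, Benjamini-Hochberg adjusted p below 0.05). The median log2 fold change of the 8 members was 1.92, against -0.51 for all genes tested.

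Gas5 had 67.5, 111 and 239 CPM as lowest, median and highest value in the 6 Ctrl 8C libraries, against 4.28, 13.95 and 85.4 CPM in the 7 Ctrl 2C libraries. The groups overlapped through a single 2C library, Ctrl 2C replicate 6, which held the 85.4 CPM; the next highest 2C library had 26.5 CPM. The log2 fold change was 2.55 ± 0.54 (SE; adjusted p 0.000101 by edgeR). Gas5 RNA is known to build up in cultured cells that have stopped growing. Snhg1, the host of the Snord22 group, had 9.34, 30.96 and 42.96 CPM in Ctrl 8C libraries, against 0, 6.90 and 14.7 CPM in Ctrl 2C libraries, with a log2 fold change of 2.39 ± 0.61 (adjusted p 0.000953 by edgeR). All 6 of the 8C libraries of Ctrl embryos lay above the 2C median for both genes.

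Snhg5, which carries the Snord50 pair, had 11.02, 51.9 and 118 CPM in Ctrl 8C libraries, against 5.99, 18.5 and 36.3 CPM in Ctrl 2C libraries (log2 fold change 1.57 ± 0.43, adjusted p 0.00206 by edgeR). Snhg6, the host of Snord87, had 3.37, 21.2 and 202 CPM in Ctrl 8C libraries, against 0, 3.81 and 28.5 CPM in Ctrl 2C libraries (2.84 ± 0.85, adjusted p 0.00398 by edgeR). Its ranges overlapped broadly, and 1 library, Ctrl 8C replicate 6, stood far above the rest with 202 CPM. Snhg12, of the mixed snoRNA content, had 3.96, 10.8 and 60.6 CPM in Ctrl 8C libraries, against 0, 2.30 and 18.6 CPM in Ctrl 2C libraries (2.10 ± 0.71, adjusted p 0.0101 by edgeR). With the groups compared alone this call was lost (adjusted p 0.0639; 54.5% of genes called in either direction). Its highest 8C value was again that of replicate 6.

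None of the 3 hosts that carry box H/ACA snoRNAs alone passed the test. Snhg3 had 25.3, 47.1 and 107 CPM in Ctrl 8C libraries, against 0.571, 9.57 and 96.2 CPM in Ctrl 2C libraries (log2 fold change 1.39 ± 0.63, adjusted p 0.0531 by edgeR); with no filter on low counts it passed, at 0.0406 (47.5% of genes called in either direction). For Snhg8 the log2 fold change was 1.28 ± 0.66 (adjusted p 0.0881) and for Snhg9 1.74 ± 0.89 (adjusted p 0.0878). Whether they differed from the hosts of box C/D snoRNAs was not tested.

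Single libraries set part of this result. Without Ctrl 8C replicate 6, the library with the highest summed level (785.3 CPM), the fewest genes detected (9672) and the lowest TMM factor (0.503) of the 36, the median log2 fold change of the 8 members was 1.21, 3 members were called (Gas5, Snhg1 and Snhg5), the log2 fold change of Snhg6 was 1.52 (adjusted p 0.0955 by edgeR) and that of Snhg12 was 1.21 (adjusted p 0.126). Ctrl 8C replicate 6 also stood apart in the stage markers. Its morula and blastocyst markers summed to 261 CPM, against 1099.9 to 2666.0 CPM in the other 5 Ctrl 8C libraries, and its oocyte markers to 492 CPM, against 39.6 to 113 CPM. Their part in the calls of Snhg6 and Snhg12 was not tested. Without Ctrl 2C replicate 6, the shallowest 2C library, all 8 members were called (median 2.63), and likewise without Ctrl 8C replicate 5; without Ctrl 2C replicate 6 the log2 fold changes of Gas5, Snhg6 and Snhg12 were 3.37, 3.63 and 2.93. In the 7 libraries of Ctrl embryos with at most 5000000 counts, fitted with the other groups' libraries of that depth, Gas5, Snhg1 and Snhg5 were called. Of all genes, 59.8% were called in either direction without Ctrl 8C replicate 6, 59.8% without Ctrl 8C replicate 5, 63.5% without Ctrl 2C replicate 6 and 44.3% at that depth limit.

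In NI embryos the same genes behaved in several ways. With edgeR, Snhg8 and Snhg9 fell at 8C and no member rose. The 2 members called lower compare with 31.4% of genes called lower and 18.5% called higher in that comparison, so the share of members was near the background. The median log2 fold change of the members was -0.14, against -0.47 for all genes tested. Limma-voom with quality weights called Snhg1 higher (1.45, adjusted p 0.0341) and Snhg9 lower (-2.81), and did not call Snhg8 (adjusted p 0.163); it called 56.5% of genes in either direction.

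Snhg9, the host of Snora78, had 0, 1.79 and 3.97 CPM as lowest, median and highest in the 6 NI 8C libraries, against 32, 6.72, 20.9 and 2.15 CPM in the 4 NI 2C libraries. The groups overlapped through NI 2C replicate 4, at 2.15 CPM, and no 8C library reached the 2C median. The log2 fold change was -3.06 ± 0.93 (adjusted p 0.00634 by edgeR), and without NI 2C replicate 1 it was -2.40 (adjusted p 0.0434). In libraries of at most 5000000 counts the value was -2.20, and the call was lost (adjusted p 0.0585 by edgeR). That fit called 40.7% of genes in either direction, and the fit without NI 2C replicate 1 called 45.8%. These levels rest on few reads: the 8C libraries of NI embryos held between 0 and 23 counts each. Rps2, which spans Snhg9 on the other strand, had its means in the opposite order, 1922.5 CPM in NI 8C libraries and 248 CPM in NI 2C libraries. In Ctrl embryos the means of both genes were higher at 8C, for Rps2 2178.5 CPM against 255 CPM at 2C. The part of shared reads was not tested.

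Snhg8, the host of Snora24, had 1.59, 7.92 and 14.2 CPM in NI 8C libraries, against 38.2, 9.36, 48.9 and 4.29 CPM in NI 2C libraries. None of the 8C libraries exceeded the 2C median of 23.8 CPM, though the ranges overlapped. The log2 fold change was -1.74 ± 0.72 (adjusted p 0.0422 by edgeR). This call was lost without any 1 of 5 libraries (NI 2C replicates 1 and 3, NI 8C replicates 1, 3 and 6), with log2 fold changes between -1.72 and -1.19 and adjusted p between 0.0627 and 0.212 in those fits. It was also lost with limma-voom, with no filter on low counts, with the groups compared alone and in libraries of at most 5000000 counts.

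The other 6 members did not pass the test in NI embryos. Gas5 had 48.8, 78.3 and 126 CPM in NI 8C libraries, against 114, 44.9, 51.0 and 33.3 CPM in NI 2C libraries (log2 fold change 0.50 ± 0.60, with a 95% interval of -0.73 to 1.72). Snhg1 had 11.5, 27.2 and 60.5 CPM in NI 8C libraries, against 28.3, 9.36, 10.1 and 6.44 CPM in NI 2C libraries, and its log2 fold change was 1.22 ± 0.71. A change of the size seen in Ctrl embryos (2.39) lay inside its interval, which ran from -0.21 to 2.65. Snhg5 had 27, 50.1 and 88.9 CPM in NI 8C libraries, against 46.8, 72.7, 18 and 36.6 CPM in NI 2C libraries (log2 fold change 0.35 ± 0.50).

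Snhg6 had 4.96, 16.8 and 51.1 CPM in NI 8C libraries, against 48, 9.6, 5.03 and 9.24 CPM in NI 2C libraries (log2 fold change 0.40 ± 0.94). Snhg3 had 24.4, 53.7 and 101 CPM in NI 8C libraries, against 134, 54.7, 87 and 80.2 CPM in NI 2C libraries (-0.63 ± 0.71). Snhg12 had 3.37, 4.87 and 20.8 CPM in NI 8C libraries, against 43.1, 7.92, 15.1 and 3.8 CPM in NI 2C libraries (-0.95 ± 0.78). In all 3 genes the NI 8C and 2C ranges overlapped, and NI 2C replicate 1 held the highest 2C value.

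**Figure D2:**
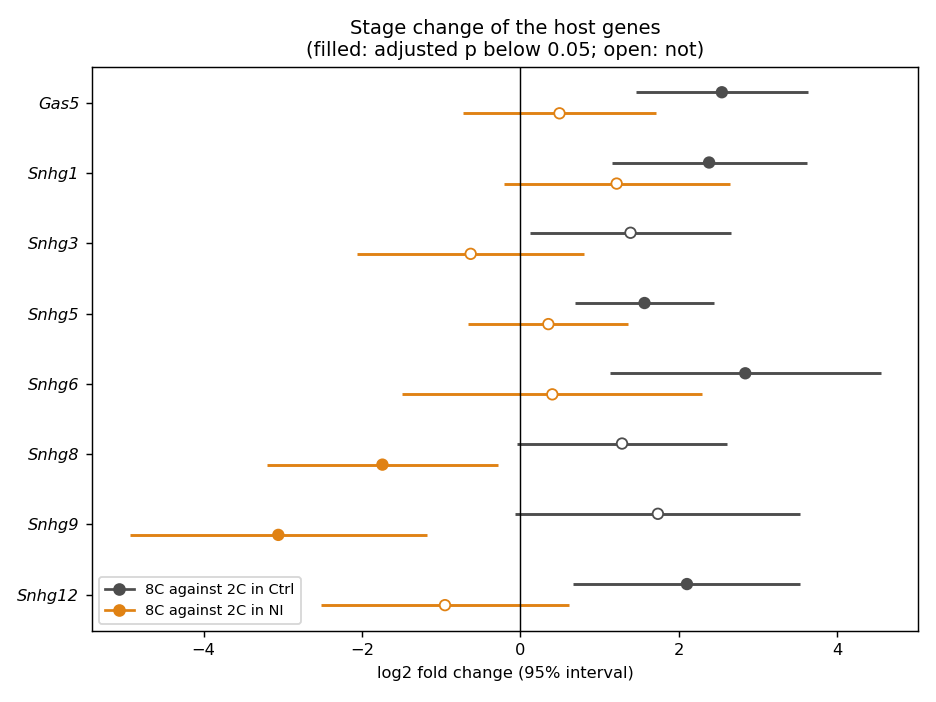
Log2 fold change of each host gene between 8C and 2C, in Ctrl embryos (dark) and in NI embryos (orange), with 95% intervals from edgeR; filled points have an adjusted p below 0.05. All 8 dark points lie right of 0, while the orange points lie on both sides, with Snhg8 at -1.74 and Snhg9 at -3.06.

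The difference between these stage changes was tested directly as an interaction. The stage change in Ctrl embryos minus that in NI embryos was positive for all 8 members, with a median of 2.24 on the log2 scale against -0.33 for all genes. The same contrast is the Ctrl against NI difference at 8C less that at 2C. Fitted by stage, the members' medians of those were 0.32 and -1.86. The stage change in Ctrl embryos, the interaction, KRAB against Ctrl and Ctrl against NI at 2C share the 7 Ctrl 2C libraries. They are therefore not separate results. The members' median was 3.20 without Ctrl 2C replicate 6, 1.66 without NI 2C replicate 1 and 1.39 in libraries of at most 5000000 counts. No member passed with edgeR, and 0% of the 13158 genes did; 5 members and 2680 genes had an unadjusted p below 0.05. The largest differences were those of Snhg9 (4.80 ± 1.29, adjusted p 0.0849 by edgeR), Snhg12 (3.06 ± 1.05, adjusted p 0.114) and Snhg8 (3.03 ± 0.98, adjusted p 0.104). That of Snhg9 rests on few reads, with between 1 and 5 counts in each Ctrl 2C library. The number of members called depended on the tool and on single libraries. DESeq2 called Snhg8, Snhg9 and Snhg12 (and 5.81% of genes), limma-voom with quality weights called all 8 (and 27.3% of genes), and edgeR without Ctrl 2C replicate 6 called Gas5, Snhg3, Snhg8, Snhg9 and Snhg12 (and 8.36% of genes). Without Ctrl 2C replicate 4, Snhg9 alone of the members passed, with an adjusted p of 0.0491 by edgeR. The share of all genes called in that fit is not given here, so the call has no background.

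At the 2-cell stage the group means of all 8 hosts had the same order, with KRAB above Ctrl and below NI. No member and no gene passed in the 3 comparisons of this stage with edgeR (0% of 11799 genes in each).

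All 8 members had positive log2 fold changes for KRAB against Ctrl, with a median of 1.28 against -0.13 for all genes (2.35 for the members without Ctrl 2C replicate 6), and 2 members and 1838 genes had an unadjusted p below 0.05. Snhg9 had 0.649, 2.85 and 8.15 CPM as lowest, median and highest in the 6 KRAB libraries, against 0.135, 0.532 and 4.91 CPM in the 7 Ctrl libraries (log2 fold change 2.31 ± 0.91, adjusted p 0.258 by edgeR). These Snhg9 levels rest on few reads, with 1 to 27 counts in each KRAB library and 1 to 5 in each Ctrl library. Snhg8 had 3.90, 13.1 and 18.7 CPM in KRAB libraries, against 0.571, 2.13 and 7.85 CPM in Ctrl libraries (2.23 ± 0.73, adjusted p 0.23 by edgeR). Both genes were above the Ctrl median in all 6 KRAB libraries, and the ranges of both overlapped. The other members had log2 fold changes between 0.88 (Snhg5) and 1.39 (Snhg6).

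Among them, Gas5 had 22.4, 29.1 and 103 CPM in KRAB libraries, against 4.28, 13.95 and 85.4 CPM in Ctrl libraries (1.22 ± 0.70). Snhg3 had 33.1, 43.5 and 80.3 CPM in KRAB libraries, against 0.571, 9.57 and 96.2 CPM in Ctrl libraries (1.27 ± 0.83). For both genes all 6 KRAB libraries lay above the Ctrl median, and the highest Ctrl library reached into the upper KRAB range or beyond it. Snhg1 ranged from 2.86 to 21.1 CPM, Snhg5 from 20.9 to 55.6 CPM, Snhg6 from 5.20 to 48.3 CPM and Snhg12 from 2.5 to 22.5 CPM in KRAB libraries. KRAB replicates 3 and 5 had the highest summed levels, 307.3 and 322.6 CPM, and the other 4 KRAB libraries lay between 100.7 and 154.9 CPM. With other settings, DESeq2 called no member (1.7% of genes), limma-voom with quality weights called all 8 (44.4% of genes), and edgeR without Ctrl 2C replicate 6 called none, with a lowest adjusted p of 0.0505 (1.34% of genes).

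KRAB against NI gave the opposite sign for all 8 members, with a median log2 fold change of -0.66 against -0.02 for all genes. The values ran from -2.19 ± 0.92 for Snhg9 to -0.11 ± 1.06 for Snhg6, with a lowest adjusted p of 0.998 by edgeR; 1 member and 368 genes had an unadjusted p below 0.05. DESeq2 and limma-voom called 0 members and 0 genes here. Both comparisons share the KRAB libraries, and without NI 2C replicate 1 the sign was positive for 4 of the 8 members, with a median of -0.06.

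Ctrl against NI showed the widest gaps of the stage. All 8 log2 fold changes were negative, with a median of -1.86 against 0.07 for all genes, and 5 members and 2756 genes had an unadjusted p below 0.05. The members' median was -1.13 without NI 2C replicate 1 and -2.99 without Ctrl 2C replicate 6. Snhg9 had 0.135, 0.532 and 4.91 CPM in Ctrl libraries, against the 2.15 to 32 CPM of the NI libraries given above (log2 fold change -4.51 ± 0.99, adjusted p 0.121 by edgeR), and ranked 8 of 11799 genes by p. Its value rests on few reads, with between 1 and 5 counts in each Ctrl library. Snhg8 ranked 27, with -3.37 ± 0.79 (adjusted p 0.121). Snhg3 had 0.571, 9.57 and 96.2 CPM in Ctrl libraries, against 134, 54.7, 87.0 and 80.2 CPM in NI libraries (-2.15 ± 0.91, adjusted p 0.172 by edgeR). All but 1 of the Ctrl libraries lay below every NI library for Snhg3, the exception being replicate 6 with 96.2 CPM.

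One Ctrl library stood apart. Ctrl 2C replicate 6 had the highest Ctrl 2C value of all 8 members and a summed level of 292.4 CPM, against 11.98 to 116.1 CPM in the other 6 Ctrl 2C libraries. It was the shallowest of the 36, with 1043743 counts. With it left out, edgeR called Gas5, Snhg3, Snhg5, Snhg8, Snhg9 and Snhg12 lower in Ctrl than in NI embryos (11.6% of genes called). With all libraries, DESeq2 called Snhg8 and Snhg9 (7.72% of genes) and limma-voom with quality weights called all 8 (50.5% of genes).

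**Figure D3:**
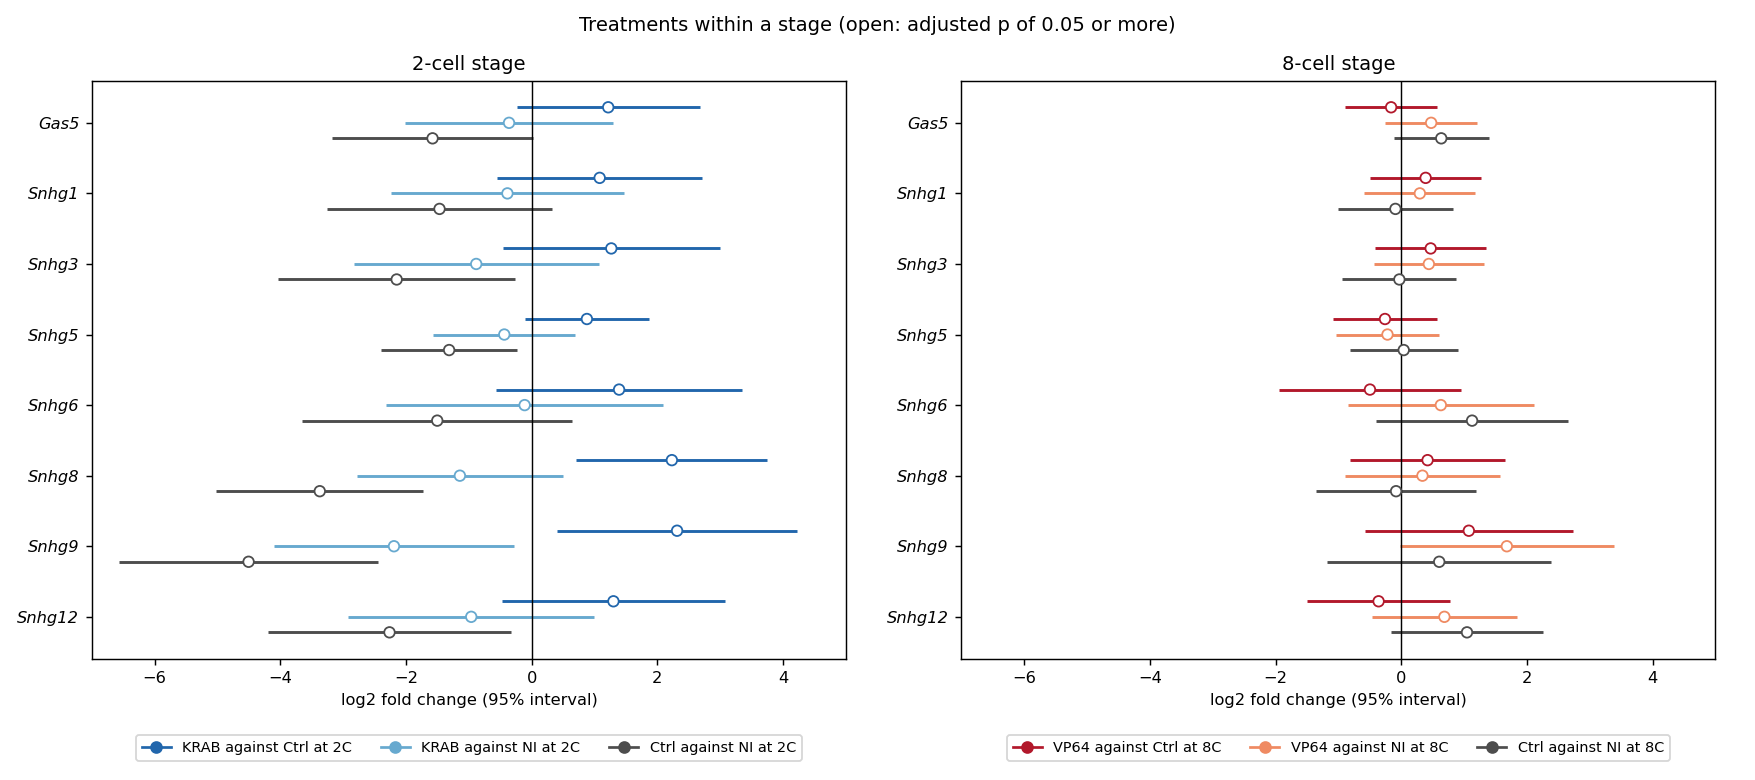
Log2 fold changes with 95% intervals (edgeR) for the host genes between treatments, at 2C on the left (KRAB against Ctrl in dark blue, KRAB against NI in light blue, Ctrl against NI in grey) and at 8C on the right (VP64 against Ctrl in red, VP64 against NI in light red, Ctrl against NI in grey). At 2C all grey points lie left of 0 and all dark blue points right of it, and at 8C every interval includes 0.

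Depth differed together with these levels at 2C. The 4 Ctrl libraries above 5000000 counts had summed member levels of 25.31 to 73.89 CPM, and no KRAB or NI library was that deep. The lowest summed level, 11.98 CPM, was nevertheless that of a shallower library, Ctrl replicate 1, with 4440193 counts. In the libraries of at most 5000000 counts (6 KRAB, 3 Ctrl and 4 NI), the members' median log2 fold changes were 0.43 (KRAB against Ctrl), -0.67 (KRAB against NI) and -1.02 (Ctrl against NI), with all 8 members of the same sign as before in each. No member passed in these fits. Ribosomal protein genes moved in the same direction as the hosts: 79 of them summed to a median of 14867.1 CPM in KRAB, 6471.6 CPM in Ctrl and 17488.4 CPM in NI libraries at 2C, and for Ctrl against NI their median log2 fold change was -1.54, with 5 of 79 positive. Morula and blastocyst markers had a median sum of 104 CPM in KRAB, 361 CPM in Ctrl and 54.4 CPM in NI libraries at 2C, and for Ctrl against NI their median log2 fold change was 2.06, with 5 of 6 tested positive and none called. Among the Ctrl 2C libraries these markers summed to between 361 and 917 CPM in replicates 1, 3, 5 and 7, whose host genes summed to between 11.98 and 61.4 CPM. In replicates 2, 4 and 6 the markers summed to between 38.1 and 48.1 CPM and the host genes to between 73.89 and 292.4 CPM. KRAB 2C replicates 2 and 4 had marker sums of 314 and 364 CPM and host sums of 106.6 and 100.7 CPM. In the remaining KRAB libraries the markers summed to between 68 and 112 CPM and the host genes to between 116.8 and 322.6 CPM. NI 2C replicate 3 had the highest NI marker sum, 178 CPM, with 256 CPM of host genes, inside the NI range of 176.1 to 483.7 CPM. The part of depth, of RNA quality and of these later-stage genes in the differences was not tested.

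**Figure D4:**
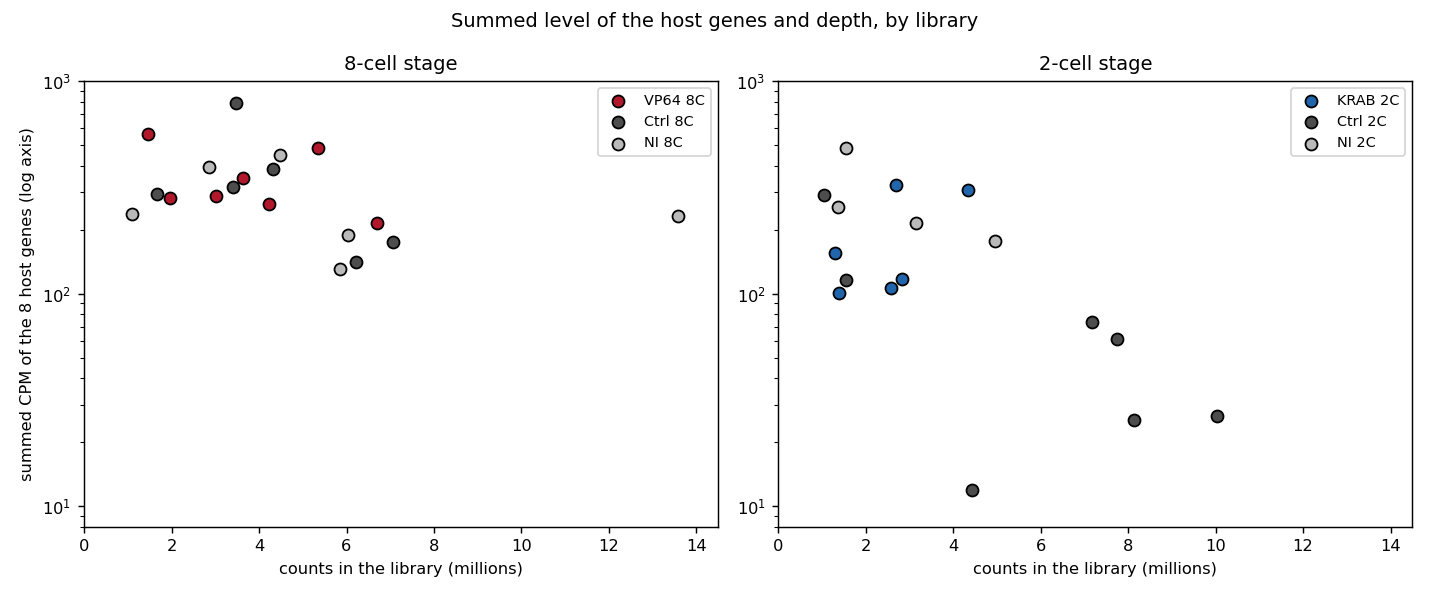
Summed level of the 8 host genes in each library (log axis, CPM) against the counts of that library, with 8C on the left and 2C on the right. At 2C the Ctrl libraries above 5000000 counts lie at 25.31 to 73.89 CPM, while below that depth Ctrl replicate 1, at 4440193 counts, lies at 11.98 CPM and Ctrl replicate 6, at 1043743 counts, at 292.4 CPM.

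At the 8-cell stage the ranges of VP64, Ctrl and NI libraries overlapped for every host, and no member or gene passed in any comparison with edgeR (0% of 9850 genes in each). For VP64 against Ctrl, the log2 fold changes ran from -0.50 ± 0.70 for Snhg6 to 1.08 ± 0.80 for Snhg9, with a median of 0.11 against -0.06 for all genes. No member and 393 genes had an unadjusted p below 0.05. Gas5 had 70.5, 113 and 180 CPM in VP64 libraries, against 67.5, 111 and 239 CPM in Ctrl libraries, with a log2 fold change of -0.16 and a 95% interval from -0.89 to 0.57. Snhg3 ranged from 46.8 to 142 CPM in VP64 libraries, against 25.3 to 107 CPM in Ctrl libraries, and Snhg1 from 20.2 to 93.4 CPM, against 9.34 to 42.96 CPM. VP64 replicates 6 and 7 had the highest summed levels of their group, 561.2 and 481.9 CPM. Without Ctrl 8C replicate 6 all 8 members had positive fold changes, with a median of 0.56 and no call.

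VP64 against NI gave a median of 0.46, with 7 of 8 members positive, and no member and 706 genes with an unadjusted p below 0.05. In libraries of at most 5000000 counts the median was -0.05, with 2 of 8 positive. Snhg9 was the member with the largest value. It had 2.70, 3.82 and 13.8 CPM in VP64 libraries, against 0, 1.79 and 3.97 CPM in NI libraries (1.68 ± 0.82, adjusted p 0.698 by edgeR), and all 7 VP64 libraries lay above the NI median; at the limit of 5000000 counts the value was 0.43. Ctrl against NI gave a median of 0.32, with 5 of 8 members positive, and no member and 429 genes with an unadjusted p below 0.05. Snhg6 had the largest value there, 1.13 ± 0.74, and without Ctrl 8C replicate 6 it was -0.26, with a median of -0.22 over the members and 2 of 8 positive. DESeq2 called no member at this stage, and 0.00565% of genes for VP64 against Ctrl, 0.221% for VP64 against NI and 0.00565% for Ctrl against NI. Limma-voom with quality weights called no member either, and 0.142% of genes for VP64 against NI.

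The rest of the snoRNA pathway is described for the stage comparisons, from lists that share some genes. Over all genes tested, 22.5% were called higher and 39% lower in Ctrl embryos, and 18.5% higher and 31.4% lower in NI embryos. Of 15 other noncoding hosts, 9 were in the table. In Ctrl embryos 4 of them rose and 1 fell at 8C (median log2 fold change 1.75), and in NI embryos none rose and 2 fell (median -0.18). The share that rose in Ctrl embryos was 44.4%, and the share that fell in NI embryos, 22.2%, was below that of all genes. The 2 that fell in NI embryos were Snhg18, with means of 0.672 CPM at 8C and 24.3 CPM at 2C (-5.03 ± 0.89, adjusted p 1.78e-05 by edgeR), and Snhg10, with 1.8 CPM at 8C and 30 CPM at 2C (-4.08 ± 0.81, adjusted p 7.8e-05). Without Ctrl 2C replicate 6, 7 rose and 1 fell in Ctrl embryos, where 63.5% of all genes were called in either direction. Without NI 2C replicate 4, 1 rose and 3 fell in NI embryos. The share of all genes called in that last fit is not given here, so its counts have no background.

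Of 39 protein-coding hosts, mostly genes of ribosomal proteins and of nucleolar proteins, 30 rose and 1 fell in Ctrl embryos (median 3.06), and 27 rose and 1 fell in NI embryos (median 2.02), so 76.9% rose in Ctrl embryos and 69.2% in NI embryos. Rpl13a, a protein of the large ribosomal subunit whose introns carry box C/D snoRNAs, had means of 988 CPM at 8C and 87.8 CPM at 2C in Ctrl embryos, and of 1113.5 CPM at 8C and 115 CPM at 2C in NI embryos. Gnb2l1, which encodes the ribosome-bound scaffold Rack1, had 1114.7 CPM at 8C and 103 CPM at 2C in Ctrl embryos, and 1291.9 CPM at 8C and 37.1 CPM at 2C in NI embryos. Among 79 ribosomal protein genes, all 79 rose in Ctrl embryos (median 3.49), and 49 rose and none fell in NI embryos (median 2.07).

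Of 9 core proteins that bind snoRNAs, 8 rose in Ctrl embryos (88.9%, median 1.89) and 4 in NI embryos (44.4%, median 1.25), and none fell. Nop10 and Nhp2l1 rose in Ctrl embryos, and in NI embryos, where they did not pass the test, their log2 fold changes were -0.59 ± 0.75 and -0.055 ± 0.56. In NI embryos 7 of the 9 core proteins had positive values. Fbl, the methyltransferase fibrillarin, had means of 194 CPM at 8C and 52.4 CPM at 2C in Ctrl embryos (log2 fold change 1.89 ± 0.46), and of 320 CPM at 8C and 94 CPM at 2C in NI embryos (1.77 ± 0.56). Nop56, Nop58 and Gar1 also rose in both. Without NI 2C replicate 2, 2 of the 9 were called in NI embryos. The share of all genes called in that fit is not given here, so the count has no background. Of 17 assembly and trafficking factors, 9 rose and 1 fell in Ctrl embryos (52.9% rose), and 6 rose and 1 fell in NI embryos (35.3% rose). The one that fell in both was Tgs1, which forms the trimethylated cap of some snoRNAs. Tgs1 had means of 36.9 CPM at 8C and 188 CPM at 2C in Ctrl embryos and of 35.9 CPM at 8C and 398 CPM at 2C in NI embryos. Ruvbl2, a helicase of the assembly complex, rose in both, with 404 CPM at 8C and 82.7 CPM at 2C in Ctrl embryos, and 487 CPM at 8C and 39.1 CPM at 2C in NI embryos.

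Of 21 genes of nonsense-mediated decay, the pathway that degrades many host RNAs, 7 rose and none fell in Ctrl embryos (median 0.62), and 9 rose and 1 fell in NI embryos (median 0.72), so 33.3% rose in Ctrl embryos and 42.9% in NI embryos. Eif4a3, a core protein of the exon junction complex, had means of 697 CPM at 8C and 176 CPM at 2C in Ctrl embryos, and of 660 CPM at 8C and 131 CPM at 2C in NI embryos. Smg8 and Upf3a rose in NI embryos (log2 fold changes 2.49 ± 0.58 and 2.18 ± 0.52), and their values in Ctrl embryos were 0.72 ± 0.45 and 0.62 ± 0.40. Without NI 2C replicate 2, 5 rose and 1 fell in NI embryos, again with no share of all genes given for that fit. Within a stage, no gene of any of these lists passed with edgeR.

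**Figure D5:**
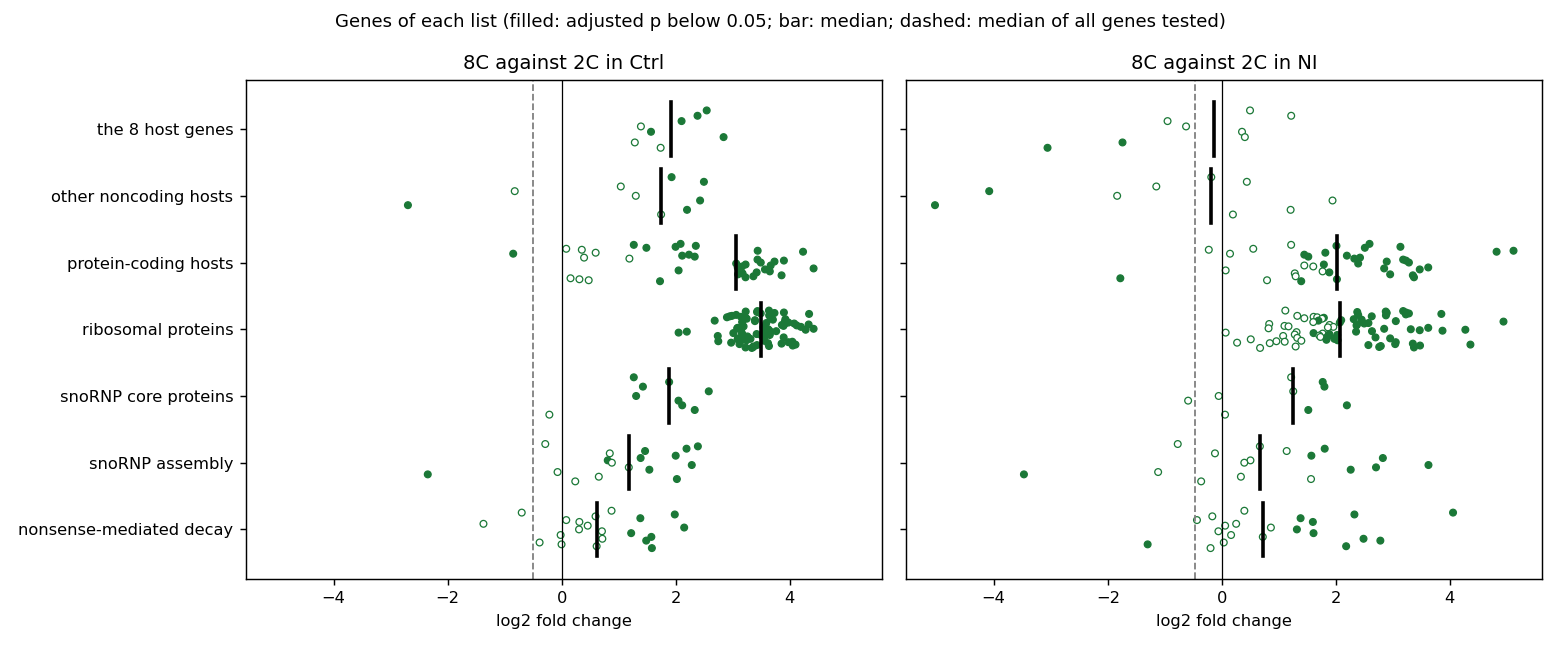
Log2 fold change between 8C and 2C of the genes in each list, in Ctrl embryos on the left and NI embryos on the right; each point is a gene, filled where the adjusted p is below 0.05, the bar is the list median and the dashed line the median of all genes tested. The bar of the 8 host genes lies at 1.92 in Ctrl embryos and at -0.14 in NI embryos, and that of the ribosomal proteins at 3.49 and 2.07.

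Across libraries the 8 members tracked each other. The Spearman correlation of a member with the mean scaled profile of the other 7 was lowest for Snhg8 (0.646) and highest for Snhg6 (0.895) over the 36 libraries, and between 0.697 (Snhg9) and 0.877 (Snhg6) after the group means had been subtracted. Among 7378 other genes with a mean of at least 10 CPM, those most like the members over all libraries were Usmg5, Snrpd2 and Rpl39l (each 0.937), Ost4 (0.932) and Tceb2 (0.929). After the group means had been subtracted they were Rpl22 (0.958), Rpl30 (0.946), Rps15 (0.945), Rpl36al (0.942) and Shfm1 (0.937). Of these last 5, Rpl22, Rpl30, Rps15 and Rpl36al are ribosomal protein genes. The points share libraries, depth and scaling, so these values are a description without a test.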

How the data were processed

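Per the labels' protocols, cDNA of 36 pools of 4 to 5 mouse embryos was made with SMART-seq v4 and sequenced. The authors deposited expected counts per gene symbol. Per the submitters' processing notes the tools were RSEM and Bowtie2 and the build mm10; which versions and which annotation is not given in the sources used here. RSEM shares out reads that fit more than 1 gene, and 9.85% of the deposited values were not whole. All per-sample columns were used (0 left out).

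The expected counts were rounded and tested with edgeR 4.0.16 (limma 3.58.1, R 4.3.3): TMM, robust quasi-likelihood test, filterByExpr (minimum count 10, minimum total 15), Benjamini-Hochberg adjustment over all genes tested, threshold 0.05. Comparisons within a stage were fitted on that stage (11799 genes at 2C, 9850 at 8C, biological coefficient of variation 0.738 and 0.609), and those between stages and the interaction on all libraries (13158 genes, 0.703). Fold changes are log2 values computed here. DESeq2 1.42.0 (its size factors and its own test), limma-voom with quality weights, no filter, fewer groups, left-out libraries and a depth limit were alternatives. The edgeR script was tested on simulated data. Groups came from the treatment and stage labels, and replicate numbers, given in accession order, only name libraries. No 2 libraries held identical counts; pairs within groups correlated between 0.589 and 0.97 (Pearson, log2 CPM). Members and gene lists were chosen with earlier results of these data known. All 8 members are named in every comparison. From each other list, up to 4 genes with the smallest adjusted p between stages in NI embryos are named. Among the core proteins, Nop10 and Nhp2l1 were named outside that rule. Snhg coordinates are from GENCODE vM21, promoters from RefSeq GRCm38.p6. Intervals cover the spread between pools.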

Additional observations from a re-analysis of the deposited data

Results flagged for a closer look

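Of 54 sets of values (each member and their sum in each group of 4 to 7 libraries), 11 held a library far from the others, with a gap to its nearest neighbour too large a share of the range for Dixon's test at the 95% level. Chance alone flags about 1 set in 20 where values are normally distributed. Many of these CPM sets are skewed upward, so that rate cannot be taken as the one to set against the 11. The sets are not independent, since the members share libraries.

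Ctrl 2C replicate 6 was far above its group for Gas5 (85.4 CPM, next library 26.5), Snhg3 (96.2, next 32), Snhg9 (4.91, next 1.28), Snhg12 (18.6, next 5.12) and the sum of the members (292, next 116). Ctrl 8C replicate 6 was far above its group for Snhg6 (202 CPM, next 44.6), Snhg9 (9.14, next 2.99) and Snhg12 (60.6, next 13.9). In NI 2C replicate 1, Snhg1 was at 28.3 CPM (next 10.1) and Snhg6 at 48 CPM (next 9.6). In VP64 8C replicate 6, Snhg1 was at 93.4 CPM (next 38.9). All 11 lay at the high end of their group.

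The rows of the hosts' own snoRNAs, which no comparison used, held 103 counts over the 36 libraries.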

How the results depend on the processing

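Counts of members called between the stages moved as follows. Percentages in brackets are the share of all genes called in the same fit, in either direction. For 8C against 2C in Ctrl embryos (5 called, 61.5%), libraries of at most 5000000 counts gave 3 (44.3%). The groups compared alone gave 4 (54.5%, without Snhg12) and no filter gave 6 (47.5%, with Snhg3). Leaving out 1 library gave 3 to 8, with 3 without Ctrl 8C replicate 6 (59.8%). It gave 8 without Ctrl 8C replicate 5 (59.8%) or Ctrl 2C replicate 6 (63.5%). Limma-voom with quality weights called 8, in a fit whose share is not given here. For 8C against 2C in NI embryos (2 called, 49.9%), limma-voom gave 2 (56.5%, Snhg1 higher and Snhg9 lower). Libraries of at most 5000000 counts gave 0 (40.7%). Leaving out 1 library gave 1 to 2, with 1 without NI 2C replicate 1 (45.8%). No filter gave 1 and the groups compared alone gave 1, in fits whose shares are not given here. Counts without a share have no background to be read against. For Ctrl against NI at 2C (0 called), DESeq2 gave 2 (7.72%) and limma-voom 8 (50.5%). Leaving out 1 library gave 0 to 6 (11.6% where 6 were called). For KRAB against Ctrl (0 called), limma-voom gave 8 (44.4%). For the interaction (0 called), DESeq2 gave 3 (5.81%) and limma-voom 8 (27.3%). Leaving out 1 library gave 0 to 5 (8.36% where 5 were called). The depth limit was chosen after seeing the data. With the groups compared alone, Snhg9 did not pass the filter in Ctrl embryos, so it has no value there. The fits of KRAB against Ctrl alone and of Ctrl against NI at 8C alone also held only 7 of the 8 members. The cause of these moves was not tested.

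Of 1373 fold changes of single members under the alternatives, 1328 kept their sign, and none of the 45 that changed sign had passed the test with all libraries; 24 of the 45 were of Ctrl against NI at 8C. With limma-voom the log2 fold change was 0.066 for Snhg1, 0.17 for Snhg3 and 0.44 for Snhg8 (Ctrl against NI at 8C), 0.44 for Snhg12 and 0.32 for Snhg6 (VP64 against Ctrl), and -0.20 for Snhg5 (8C against 2C in NI). With at most 5000000 counts, VP64 against NI gave -0.022 for Snhg1, -0.14 for Snhg12, -0.24 for Snhg3, -0.057 for Snhg6 and -0.036 for Snhg8. Leaving out 1 library, signs changed within these ranges. For KRAB against NI they were -0.71 to 0.28 (Gas5), -0.75 to 0.40 (Snhg1), -1.44 to 0.19 (Snhg12) and -0.82 to 1.22 (Snhg6). For VP64 against Ctrl they were -0.29 to 0.13 (Gas5), -0.57 to 0.58 (Snhg12), -0.47 to 0.12 (Snhg5) and -0.75 to 0.88 (Snhg6). For Ctrl against NI at 8C they were -0.27 to 0.24 (Snhg1), -0.35 to 0.21 (Snhg3), -0.35 to 0.26 (Snhg5), -0.26 to 1.53 (Snhg6), -0.31 to 0.18 (Snhg8) and -0.23 to 1.06 (Snhg9). Snhg1 ranged from -0.078 to 0.64 for VP64 against NI, and Snhg12 from -1.45 to 0.026 for 8C against 2C in NI.

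No paired analysis was possible because the replicate numbers were given in accession order and pair no libraries. The precision is limited by the number of pools: the median 95% half-width of a member's log2 fold change was 1.30 between stages in Ctrl embryos and 1.44 in NI embryos. Snhg9 rests on 460 counts in all 36 libraries.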
